A study of Drosophila melanogaster with 2 samples.

Results

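Of the 6066 peaks that the authors' thresholded list holds for the CG12768-GFP fusion protein, 428 (7.06%, 95% Wilson interval 6.44 to 7.73) had their summit in no annotated gene and more than 500 bp from every protein-coding transcript start. They are called intergenic peaks here. The rule takes members by position alone, from the deposited summit and the Ensembl annotation of the dm6 build. No measured value enters it beyond the authors' own threshold, but it was set with earlier results of these data known. Chromatin immunoprecipitation with sequencing was run on whole adult male Drosophila melanogaster of 1 transgenic line, of unknown age, that stably expresses CG12768 with GFP fused at its C terminus. The antibody used for recovery was against GFP, and the DNA had been sonicated to between 200 and 800 bp. There were 2 biological replicates of this 1 group, with no second genotype or condition, and a whole fly mixes all its tissues. No mock immunoprecipitation and no control library was analysed here, so peaks that the antibody would give in flies without the tag remain among the members.

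The long gaps between fly genes hold enhancers, silencers and insulators, as well as transfer RNA genes, noncoding transcription units and promoters that the annotation lacks. A summit in such a gap marks where the recovered DNA piled up highest and does not tell which gene, if any, the protein acts on there. CG12768 carries a MADF domain, a DNA-binding domain related to that of the transcription factor Adf-1.

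The sequences of the 120 bp centred on 10 intergenic summits follow, read from RefSeq's genome sequence of the dm6 build on its plus strand. The first 6 are of high signal, the next 3 come from long runs of neighbouring peaks, and the last lies beside a transfer RNA gene. Capitals mark matches, on either strand, of the 12 motifs that were more frequent at all 6066 summits than in their flanks.
CG31668 side of the COX7AL2 gap, chr2L:2202367-2202486: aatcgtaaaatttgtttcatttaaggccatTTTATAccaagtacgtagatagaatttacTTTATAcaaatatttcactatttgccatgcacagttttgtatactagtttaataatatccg
lncRNA:CR31044, nearest eEF1gamma, chr3R:29214391-29214510: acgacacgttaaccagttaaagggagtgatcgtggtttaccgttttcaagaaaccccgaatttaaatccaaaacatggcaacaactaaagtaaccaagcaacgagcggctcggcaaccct
Alp13, outer summit, chr3R:10082622-10082741: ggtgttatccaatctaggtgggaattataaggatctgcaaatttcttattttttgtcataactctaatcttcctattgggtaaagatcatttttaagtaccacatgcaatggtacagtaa
Alp13, inner summit, chr3R:10079719-10079838: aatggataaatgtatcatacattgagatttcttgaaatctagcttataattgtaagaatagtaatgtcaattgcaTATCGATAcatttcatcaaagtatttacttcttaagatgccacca
tara, chr3R:16222444-16222563: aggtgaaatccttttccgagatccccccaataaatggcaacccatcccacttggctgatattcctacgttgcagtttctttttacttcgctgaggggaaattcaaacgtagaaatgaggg
DNAlig3, chr3R:12403070-12403189: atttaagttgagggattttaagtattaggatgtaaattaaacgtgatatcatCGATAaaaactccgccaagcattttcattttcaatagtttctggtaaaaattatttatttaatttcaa
Hacd1 and Rh5, chr2L:12003242-12003361: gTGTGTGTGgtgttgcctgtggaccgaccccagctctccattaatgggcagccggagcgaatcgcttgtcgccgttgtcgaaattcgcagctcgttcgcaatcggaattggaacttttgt
hry and SrpRbeta, chr3L:8696585-8696704: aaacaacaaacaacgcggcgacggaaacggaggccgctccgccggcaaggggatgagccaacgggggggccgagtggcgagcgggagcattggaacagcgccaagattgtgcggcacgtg
foxo, chr3R:14053525-14053644: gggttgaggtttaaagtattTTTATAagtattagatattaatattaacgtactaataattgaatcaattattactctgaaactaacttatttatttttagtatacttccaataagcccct
tRNA:Ser-AGA-2-4, chr2L:3173052-3173171: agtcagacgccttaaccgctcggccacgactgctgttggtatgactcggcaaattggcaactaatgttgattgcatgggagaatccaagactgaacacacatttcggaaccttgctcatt

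In 5 of these 10 windows none of the 12 motifs was found, and the DNA replication-related element (DRE, TATCGATA) appeared once, at the inner Alp13 summit. The base composition of the windows differed widely, from a GC content of 23.3% at foxo to 65.8% between hry and SrpRbeta. The 6 windows of high signal ran from 25% at DNAlig3 to 45% at tara and at lncRNA:CR31044.

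The strongest intergenic peak, at 2L 2202031-2203057, lay between COX7AL2 and CG31668 with a signal of 2389 in the thresholded list. Signal is the value that the authors' peak caller gave each peak, on a scale that the lists do not state. The overlapping peaks of the replicates had signals of 1210 in replicate 1 and 1177 in replicate 2, where they ranked 9 and 26. The next peak, at 3R 29214207-29214646, had a signal of 2107.5 and ranked 23 in both replicates. Its nearest protein-coding start, that of the elongation factor gene eEF1gamma, was 5721 bp away, but the start of the noncoding gene lncRNA:CR31044 was 111 bp away. Both summits were thus among the leading 30 peaks of each replicate.

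A pair of strong peaks stood upstream of Alp13, an alkaline phosphatase gene, in the gap that ends at Fmr1, which encodes an RNA-binding protein. The outer one had a signal of 1545, with 639 in replicate 1 and 916 in replicate 2. The inner one had a signal of 1363, with 592 and 760. Each was among the 100 strongest peaks of both replicates, and other peaks of the same gap reached no more than 292. A peak of signal 1306 lay in the gap between CG13323, 9419 bp away, and the Polycomb-group gene Su(z)2, 27365 bp away. In the same gap, 3 other peaks had signals from 167 to 384. Another peak (990.5) lay 4217 bp from Psc, which encodes a subunit of the repressive complex PRC1. The start of the noncoding gene lncRNA:CR44339 was closer to that peak, 156 bp away. Upstream of tara, a transcriptional coregulator gene, the leading peak had a signal of 1103 and ranked 164 and 114 in the replicates.

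The other members of the 20 strongest had signals from 1138 down to 739.5. Their nearest protein-coding starts were those of CG30154, DNAlig3 (a DNA ligase gene), COX7AL2, jp (junctophilin), nrv1 (a beta subunit of the sodium pump) and CG13898. For the rest they were those of Hacd1, CG9498, Mkp3 (a MAP kinase phosphatase gene), tal-1A, CG33798, Sesn (sestrin) and CG1888. Nearest genes are given by their starts throughout, and another gene can be closer. The summit 1291 bp from the DNAlig3 start lay between Sol1 (228 bp away) and Cyp9f2 (210 bp away). The summit 952 bp from CG9498 was 338 bp from ppk7. The peak at jp shares its gap with brwl, 1378 bp away, and the peak at CG13898 shares its gap with hng3, 28812 bp away. Neither brwl nor hng3 was the nearest gene, and both belong to the MADF family, as CG12768 does. How often genes of that family bound the gap of a member was not counted. Some of these other members of the 20 strongest had close ranks in the replicates and some did not. The peak nearest to the start of DNAlig3 ranked 180 in replicate 1 and 171 in replicate 2, and that nearest to COX7AL2 200 and 213. The peak between Hacd1 and Rh5, a rhodopsin gene of the compound eye, ranked 79 in replicate 1 and 884 in replicate 2, whereas the peak at CG9498 ranked 430 and 161.

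As a class, intergenic peaks had a median signal of 216 (order-statistic interval 203 to 229), within a range of 141 to 2389. Promoter peaks, within 500 bp of a protein-coding start, had 235 (228 to 241), and intron peaks outside promoters 211 (206 to 217). Of intergenic peaks, 202 (47.2%) were in the stronger 50% of the list. The share differed from that of promoter peaks by −6.34 percentage points (Newcombe interval −11.3 to −1.32). Against intron peaks the difference was 1.69 points (−3.48 to 6.90), an interval that includes 0. All intervals here cover counting error over peaks and not variation between flies.

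Most intergenic peaks were found in each replicate, at the rate of the list as a whole. Of the 428, 288 (67.3%, 62.7 to 71.6) overlapped a peak among the leading 6066 of both replicates, against 67.7% of all thresholded peaks. The share differed from that of promoter peaks by −1.36 points (−6.20 to 3.20) and from that of intron peaks by 0.37 points (−4.64 to 5.13). Another 66 overlapped a leading peak of replicate 1 only, 67 of replicate 2 only and 7 of neither. Where at least 50% of both peaks had to be shared, 48.8% were found in both, a share not worked out for the other classes. With the whole replicate lists it was 98.6%, or 422 of 428, beside 5973 of all 6066 peaks. The authors made the list from both replicates with a threshold on the irreproducible discovery rate. Overlap with the replicates was thus largely set by that selection and is no independent test of the members. Of the peaks in the authors' pooled list, 13.02% of the 3288 intergenic ones passed the authors' threshold, compared with 33.2% of promoter and 16.0% of intron peaks, and 20.2% of all.

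The replicates ranked intergenic peaks differently according to base composition. Of the 127 peaks in both lists whose 200 bp at the summit had a GC content of 37% or less, 91 had the higher signal in replicate 2, with a median log2 ratio of replicate 2 to replicate 1 of 0.35 (0.24 to 0.54). Of the 140 with 47% or more, 28 did, with a median of −0.56 (−0.67 to −0.45). The peaks between them had −0.20 (−0.42 to 0.02). Spearman's rho between GC content and the log2 ratio was −0.44 over 422 intergenic peaks, −0.58 over 3299 promoter peaks and −0.41 over 1960 intron peaks, so the pattern was not confined to intergenic peaks. These values are given as a description, since the peaks share their libraries and the threshold that selected them. The scaling between the lists is not stated, so only the difference between sets of peaks can be read. Over all intergenic peaks the median ratio was −0.17 (−0.28 to −0.04), between 0.02 for promoter peaks and −0.29 for intron peaks.

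**Figure D1:**
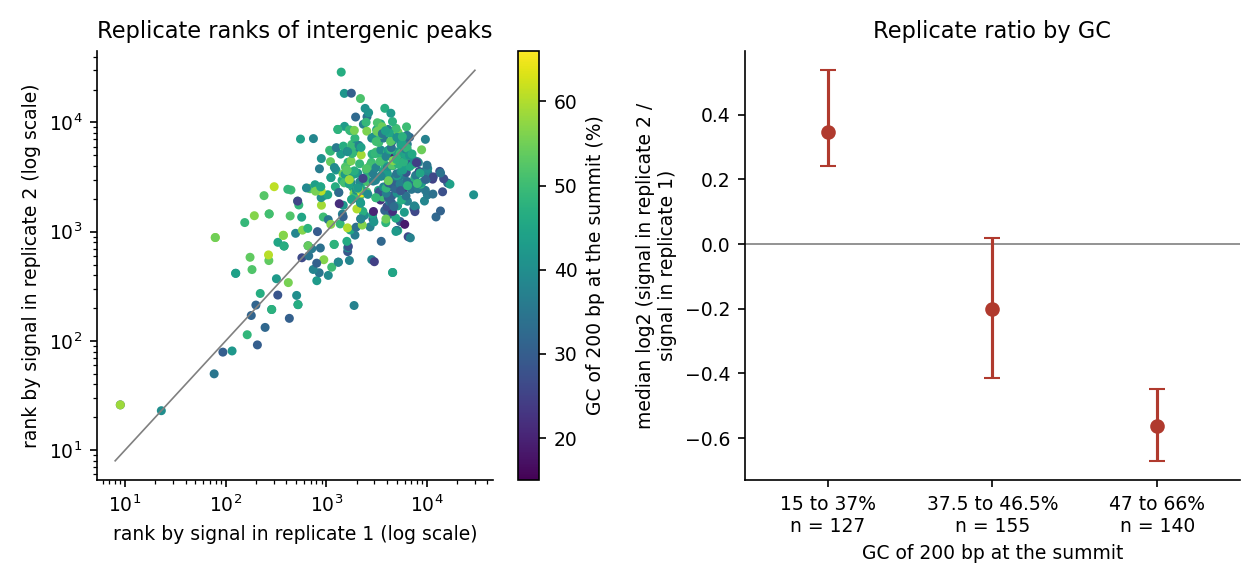
Left, rank by signal of the overlapping peak in replicate 1 (x) and replicate 2 (y) for each intergenic peak, on log scales where 1 is the strongest, coloured by GC content of the 200 bp at the summit, with the line of equal ranks. Right, median log2 ratio of signals with order-statistic intervals, which falls from 0.35 in the AT-rich set to −0.56 in the GC-rich set.

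The same dependence appeared at the summits themselves. In the thresholded list the 200 bp at intergenic summits had a median GC content of 42.5% (41.0 to 43.5), against 39.5% (39.0 to 40.0) in flanks centred 500 bp away on the side away from the nearest start, a median difference of 2.0 percentage points (1.0 to 4.0). Flanks centred 1000 bp away had 41% (40 to 42.5), and eligible windows of the same length had a median of 41%, so the gap to the summit depends on what it is set against. Taken from the leading 6066 peaks of replicate 1 alone, intergenic summits had 44.5% and the difference was 4.5 points (3.0 to 6.5). From those of replicate 2 alone they had 39.5%, and the difference was 0.25 points (−2.0 to 2.0). The higher GC content at intergenic summits was therefore seen in 1 of 2 replicates. Introns behaved alike, with differences of 3.5 points in replicate 1 and −1.0 in replicate 2, and promoters had 1.0 and −5.5. What sets the replicates apart in GC content was not tested.

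**Figure D2:**
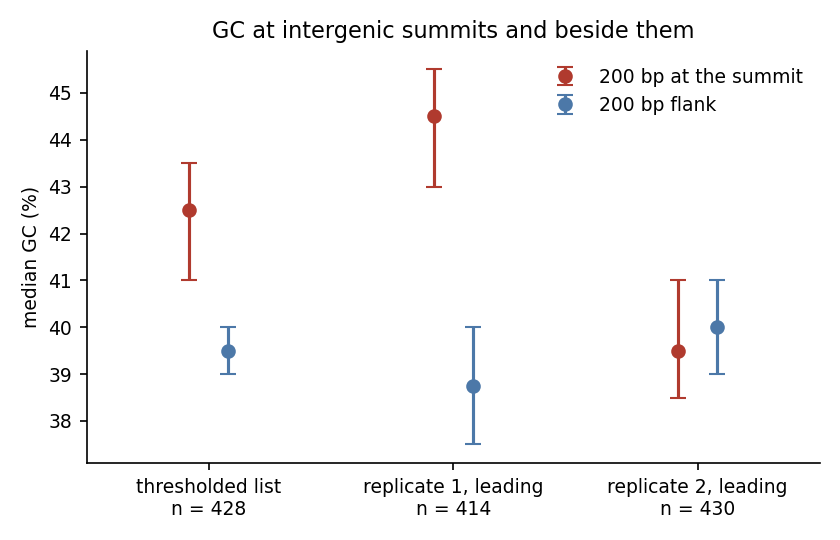
Median GC content (%) of the 200 bp at intergenic summits (red) and of 200 bp flanks (blue), with 95% order-statistic intervals, in the thresholded list and in each replicate's own leading 6066 peaks. Summit and flank stand apart in replicate 1 (44.5 against 38.8%) and overlap in replicate 2 (39.5 against 40.0%).

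Density fell with distance from the nearest protein-coding start. The sequence in which a member could lie, outside genes and over 500 bp from protein-coding starts, came to 37.1 Mb, or 27.7% of the assembled arms, and is called eligible sequence here. It held 11.6 peaks per Mb (exact Poisson interval 10.5 to 12.7), compared with 58.4 per Mb in all other sequence. From 500 to 1000 bp from a start there were 47.5 peaks per Mb (38.6 to 57.8), from there to 2000 bp 28.2 (22.8 to 34.3), and from 2000 to 5000 bp 16.1 (13.3 to 19.2). From 5000 to 10000 bp the density was 6.29 (4.59 to 8.42) and beyond that 3.92 (3.03 to 4.98). None of these 5 intervals overlaps the next but for the last pair. Signal did not follow this order, with medians between 210.5 and 223 in the 5 bands.

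**Figure D3:**
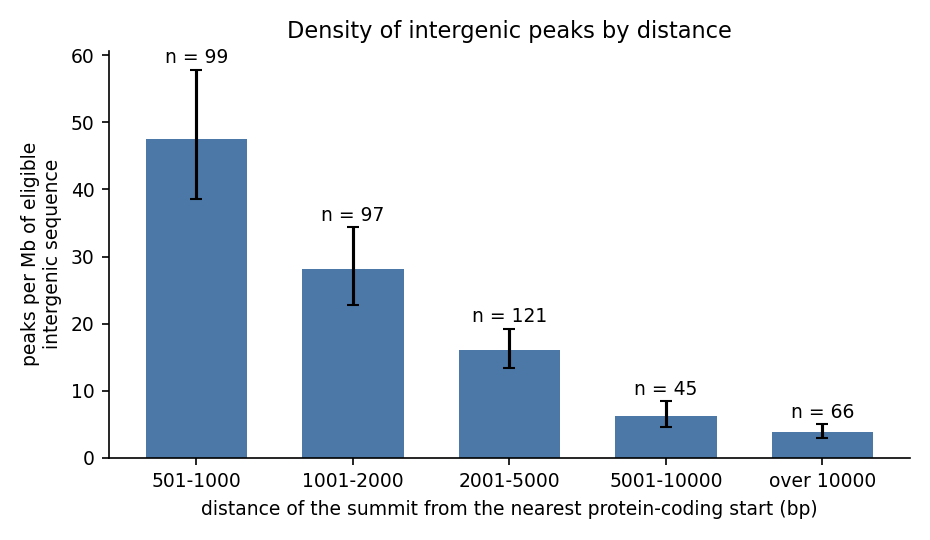
Intergenic peaks per Mb of eligible sequence (y) by distance of the summit from the nearest protein-coding start in bp (x), with exact 95% Poisson intervals and the number of peaks. The density falls in each successive band, from 47.5 to 3.92 peaks per Mb.

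The median distance from the nearest start was 2250 bp, and 232 peaks (54.2%) lay over 2000 bp away. The farthest was at the end of chromosome 4, 87115 bp from the start of Cadps, a gene of neurosecretory vesicle release, and had a signal of 276. It and the next, 74652 bp from the same start (166), were the only members in annotated transposable elements. The others of the 5 farthest lay on 3L between NijA and CG43245, at 34556, 33295 and 33095 bp, with signals of 352, 406 and 184. At the inner edge, the 3 members nearest to the 500 bp limit lay at 506 bp from Mkp3 (signal 814), 511 bp from CG3368 (153) and 515 bp from scrib (284), while intergenic summits at 499 bp from CG17896 (522), 493 bp from CG15172 (211) and 481 bp from Tim13 (212) were left out. In all, 1690 summits lay outside genes, and 1262 of them were within 500 bp of a start.

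Intergenic peaks lay more often upstream of the nearest protein-coding start than the eligible sequence does. Upstream lay 294 (68.7%, 64.2 to 72.9), compared with 59.2% of eligible sequence. From 500 to 2000 bp, 87.2% (81.9 to 91.2) were upstream, against 79.1% of the sequence, and beyond 2000 bp 53.0% (46.6 to 59.3) against 55.8%. Gaps between genes that point away from each other held 149 peaks (34.8%, 30.5 to 39.4), against 23.4% of the sequence. Gaps between genes in tandem held 177 (41.4%, 36.8 to 46.1), against 49.5%, and gaps between convergent genes 98 (22.9%), against 22.1%. Beyond 2000 bp the share of tandem gaps was 36.6% against 48.8%, that of divergent gaps 29.3% against 21.3% and that of convergent gaps 32.3% against 24.0%. With each run of peaks within 5 kb counted once, a setting chosen after seeing the data, 298 peaks remained. Divergent gaps then held 32.6% of them (27.5 to 38.1), and tandem gaps 45.6% (40.1 to 51.3), an interval that includes the 49.5% of the sequence. Beyond 2000 bp, tandem gaps held 37.6% (30.0 to 45.8), still below their 48.8%, and divergent gaps 27.7% (20.9 to 35.6), an interval that includes their 21.3%.

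**Figure D4:**
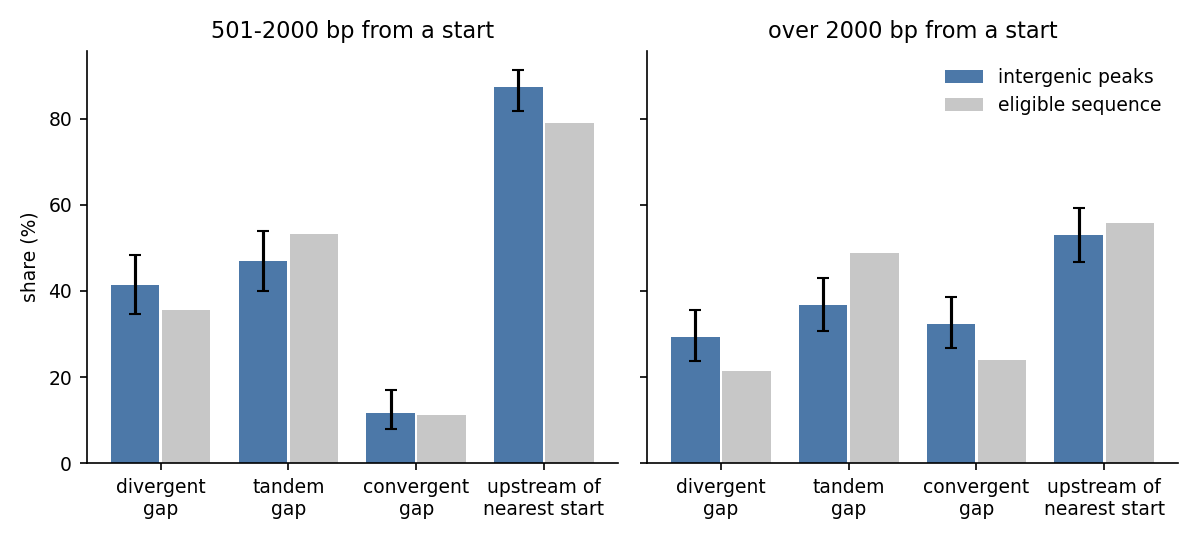
Share (%) of intergenic peaks (blue, with 95% Wilson intervals) and of eligible sequence (grey) in divergent, tandem and convergent gaps and upstream of the nearest protein-coding start, at 500 to 2000 bp (left) and over 2000 bp (right) from a start. Tandem gaps hold fewer peaks than their share of the sequence over 2000 bp away, 36.6 against 48.8%.

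Starts of noncoding genes were close to many intergenic peaks. Of the 428, 64 (15%, 11.9 to 18.6) had a noncoding start within 500 bp, in 2.17% of the eligible sequence, a density of 79.5 peaks per Mb (61.2 to 102), against 10.04 (9.03 to 11.1) farther away. Summits inside noncoding genes are not members, which leaves mostly the upstream side of such starts. Genes of the annotation's ncRNA class, long noncoding and antisense RNAs among them, accounted for 50, transfer RNAs for 11, small nucleolar RNAs for 2 and a U6 small nuclear RNA for 1. After lncRNA:CR31044, those of highest signal lay 363 bp from lncRNA:CR44651 (1138), 156 bp from lncRNA:CR44339 (990.5), 31 bp from lncRNA:CR43651 (739.5) and 28 bp from Uhg4 (690), a host gene of small nucleolar RNAs. At transfer RNA genes, 2.57% of members (1.44 to 4.54) lay in 0.216% of the eligible sequence, with signals from 150.4 at tRNA:Val-CAC-1-1 to 468 at tRNA:Ala-TGC-2-1. The summit printed above beside tRNA:Ser-AGA-2-4 was 28 bp upstream of that gene and had a signal of 222.

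Many intergenic peaks stood in runs. With summits within 5 kb chained together, 197 (46.0%) were in 67 runs, of which 15 held 4 or more. The like share was not worked out for promoter or intron peaks, so it does not set intergenic peaks apart. Some members of runs are summits of 1 region, as 12 members share both ends with another member, and 64 overlap another member. With overlapping members merged, 428 peaks became 396 regions, of which 151 (38.1%) had another region within 5 kb, and 11 runs held 4 or more. In the 15 runs, 72 of 85 peaks lay over 2000 bp from a start, against 94 of 231 peaks that stood alone. Both replicates had overlapping leading peaks at 66 of the 85 and at 138 of the 231. Summits of 1 region can overlap the same replicate peak, which then counts more than once. Peaks of a run are therefore not independent units, and these counts are not on a like footing.

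The longest runs had 10 summits each. On 2L, 10 summits in 7 merged regions spanned 9020 bp on both sides of Rh5, from Hacd1 to Wdr81, with signals from 148 to 850 and a median GC content of 53.5%. All 10 overlapped peaks in the leading 6066 of both replicates, with a median log2 ratio of −0.63. Both summits nearest to Hacd1, for example, overlapped the same peak in each replicate. On 3L, 10 summits in 8 regions spanned 13462 bp between hry, which encodes the Hairy repressor, and SrpRbeta, a signal recognition particle receptor gene, with signals from 165 to 570. All of them lay at least 14910 bp from a protein-coding start. Between COX7AL2 and CG31668, 7 summits in 6 regions ranged from 154 to 2389. On either side of the strongest intergenic summit stood those of 914 and 524. Another 7, between CG6168 and CG6163, had signals no higher than 363.

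Some of the shorter runs lay beside regulatory genes and others did not. How often regulatory genes bound gaps in general was not counted. The gap before foxo, the transcription factor of insulin signalling, held 5 peaks from 799 to 7867 bp upstream, with signals of 596, 282, 223, 222 and 158, and all 5 were in the leading 6066 of both replicates. On either side of scyl, an inhibitor of TOR signalling, stood a run of 5 peaks towards Ir68a (154 to 603) and a run of 4 towards Dyro (145 to 262). The gap to Dyro held 8 in all, up to a signal of 410. The run upstream of tara had 4, from 227 to 1103. Between lola and psq, a pair of BTB transcription factor genes, there were 4 (144 to 237), of which 2 were in the leading list of each replicate. The run between CG7484 and Crtc, a coactivator gene of CREB, held 5 (142 to 221), that between hng3 and CG13898 5 (177 to 867), that between CG1888 and Or45b 5 (153 to 739.5), that between Gadd45 and CG1850 4 (141 to 316) and that between NijA and CG43245 4 (184 to 597). A run need not hold every peak of its gap. The whole gap held 6 peaks between hng3 and CG13898 and 8 between NijA and CG43245. The genes nearest to most summits were Rh5, scyl and CG6163 with 8 each, CG43245 with 7, and Alp13 and hry with 6.

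**Figure D5:**
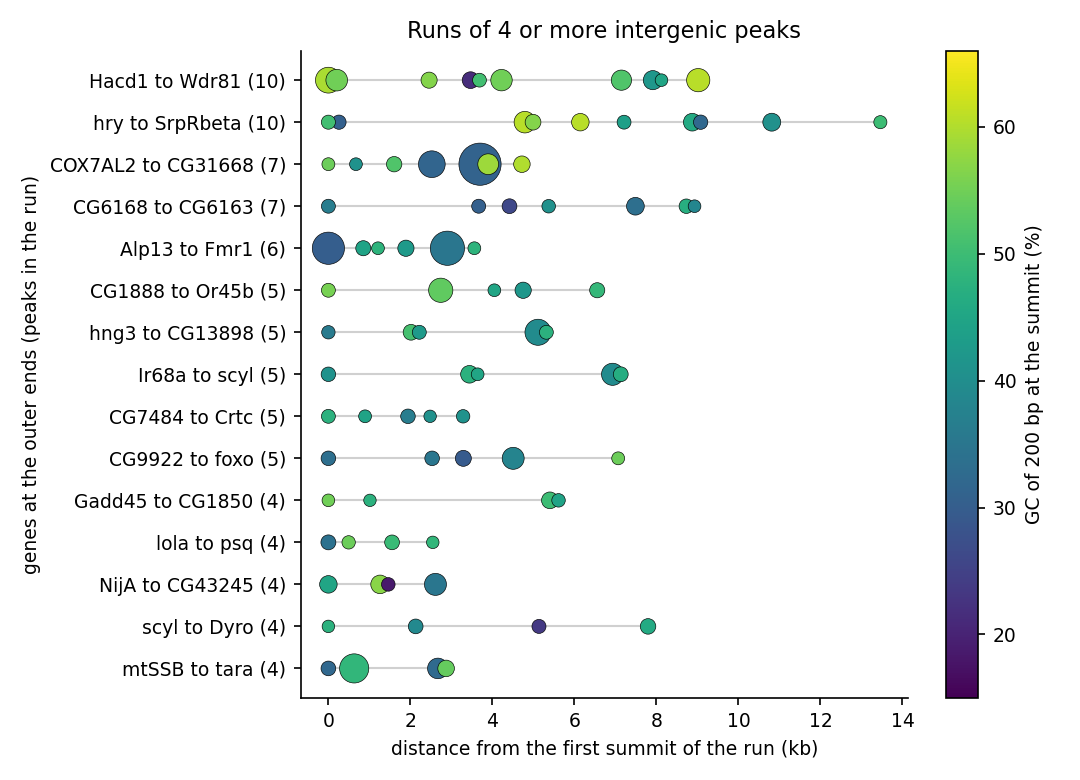
The 15 runs of 4 or more intergenic peaks, 1 row each, named by the genes at their outer ends. Points are summits, placed by distance (kb) from the first summit of the run, with area rising with signal and colour giving GC content (%) of the 200 bp at the summit. The largest point is the peak of signal 2389 between COX7AL2 and CG31668.

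The genes nearest to intergenic peaks also had bound promoters more often than other genes. An intergenic peak was nearest to 287 of 13945 protein-coding genes, and 126 of these (43.9%, 38.3 to 49.7) had a thresholded summit within 500 bp of a start, compared with 25.5% of the other genes and 25.9% of all. The difference was 18.4 points (Newcombe interval 12.7 to 24.2). Among genes nearest to 4 or more peaks, Rh5, CG43245 and CG13898 had no promoter summit and the other 11 did. Gaps with long eligible sequence have more room for peaks, and the length of the gap was not taken into account here. Some members also overlap another thresholded peak beside a bound promoter. The nearest promoter summit was 292 bp from such a member at per and 204 bp from one at stv. A single bound region can thus be split by the 500 bp limit and count on both sides. What part of the difference comes from such regions was not tested.

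In the 12 lists of named pathways, 20 of 864 genes (2.31%) were nearest to an intergenic peak, near the 2.06% of all protein-coding genes. The share was above that of all genes in 7 lists and below it in 5, on counts of at most 3 genes a list. Of 22 ecdysone response genes in the annotation, 3 were, with 7 peaks. Eip75B, a nuclear receptor gene induced by the hormone, had 3 (signals 359, 232 and 152) at 11263 to 12305 bp downstream of its nearest start, Eip93F had 2 (212 and 164) and Hr38 had 2 (188 and 157). Of 53 metabolic and fat body genes, foxo had 5 and Thor, the 4E-BP translation inhibitor, had 1 (151). Of 13 clock genes, per had 1 peak 628 bp upstream (461), which ranked 304 in replicate 1 and 2580 in replicate 2, and nej, a histone acetyltransferase gene, had 1 at 675 bp (440).

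Among 124 developmental regulators, srp, a GATA factor gene (273), and C15, a homeobox gene (182), had 1 each, so that 0.467% of members lay in the 4.53% of eligible sequence nearest to that list. The count of 2 was 4 from either replicate alone, 5 at a promoter distance of 250 bp and 10 where either gene that bounds the gap counted. Of 179 chemoreceptor genes, Ir68a and Or45b had 3 peaks each and Gr93d had 2, the strongest at Gr93d (499). Both peaks at Gr93d overlap the same peak in each replicate. Among cytoplasmic ribosomal protein genes RpS23 had 2 (285 and 226). Single peaks or pairs lay nearest to stv, a cochaperone gene (368), PGRP-SA, a receptor for bacterial peptidoglycan (583), Ddc, dopa decarboxylase (143), sty, an antagonist of receptor tyrosine kinases (144 and 143), and the cell adhesion genes dpr20 (579), caps (253) and beat-IIIb (170). No replicate 2 peak overlapped the one at stv. None of 110 cuticle protein genes was nearest to a member, while 3 members lay in a gap bounded by one. By either bounding gene the chemoreceptors had 15 peaks in place of 8 and the ecdysone list 11 in place of 7. With runs counted once the ecdysone list had 4 peaks, the metabolic list 2 and the chemoreceptors 1.

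The X chromosome, which males carry in a single copy, had fewer intergenic peaks for its eligible sequence. There were 32 on X, or 5.98 per Mb (4.09 to 8.44), and 12.5 per Mb (11.3 to 13.8) on the large autosome arms, which ranged from 11.1 on 2R to 13.9 on 3R. Chromosome 4 had 3 peaks (11.8 per Mb, 2.44 to 34.6). The whole thresholded list also had fewer peaks on X, with 716 there and from 1105 on 2L to 1580 on 3R on the large autosome arms. Intergenic peaks were 4.47% of all peaks on X and 7.38% of those on the large autosome arms. The strongest on X lay 1145 bp upstream of PGRP-SA, and the median signal was 223 on X and 217 on the large autosome arms. Each replicate gave the lower X density when used alone, with 6.2 per Mb in replicate 1 and 6.5 in replicate 2. With runs counted once the densities were 5.23 (3.47 to 7.56) on X and 8.49 (7.50 to 9.57) on the large autosome arms, whose intervals just overlap. What part the number of X copies has in this was not tested.

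For none of the 31 motifs searched did the difference between intergenic summits and their flanks pass adjustment. Motifs were sought on both strands in the 200 bp at the summit and in the flank, and compared with the exact McNemar test, two-sided, with Benjamini-Hochberg adjustment over the 31. At an unadjusted p under 0.05 stood 2, a GAGA repeat (GAGAGAGA, at 15 summits and 4 flanks, exact p = 0.0192, adjusted 0.298) and a STAT element (TTCNNNGAA, at 16 summits and 36 flanks, exact p = 0.00779, adjusted 0.241). Over all 6066 summits the same test called 12 motifs (38.7%) higher and 5 (16.1%) lower. Intergenic summits are far fewer, so a motif not called there may still differ. A GATA motif (TGATAA) was at 18.46% of intergenic summits and 13.79% of their flanks, beside 19.06% and 14.97% over all summits. Of the 12, the TATA box (TATAAA) was at 108 intergenic summits and 123 flanks, and an E-box (CAGCTG) at 29 and 33. Both differences were far from the threshold (exact McNemar p = 0.279 and 0.678). The M1BP motif (GGTCACACT) was found neither at intergenic summits nor in their flanks. The DRE was at 1.17% of intergenic and 4.55% of promoter summits, a difference of −3.38 points (−4.39 to −1.71), and in 0.44% of eligible windows of the same length. The core of that element that BEAF-32 binds (CGATA) was at 24.3% and 34.7% (difference −10.4 points, −14.5 to −5.82). Against intron summits these differences were 0.76 points (−0.01 to 2.31) and −0.25 points (−4.54 to 4.42).

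The 5 intergenic summits with a DRE lay nearest to Alp13 (signal 1363), CG6163 (198), CG15629 (195), CG13577 (187) and IP3K1 (160). The first is the inner Alp13 summit printed above. For the GAGA repeat, the difference from promoter summits was −0.54 points (−2.09 to 1.74). None of the 428 summits had a second exact copy of its central 50 bp on the arms, and none lay in a gene of the RefSeq annotation.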

How the data were processed

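Per the labels and file headers, the authors deposited peak lists per replicate, for the pooled replicates and after a threshold on the irreproducible discovery rate. Each deposited peak carries a signal value and the −log10 of a q-value, both from the authors' peak caller. Not given in the sources used here are the aligner, the caller and the threshold. With no read counts in the lists, depth is unknown. The dm6 lists were set against Ensembl release 115 annotation, with summits from the deposited offset. Shares carry Wilson, differences Newcombe, densities exact Poisson and medians order-statistic intervals at 95%. Motifs were compared with the exact McNemar test, after a check on simulated data. Python 3.11.15 with numpy 2.4.6, pandas 2.3.3, scipy 1.17.1 and matplotlib 3.10.9 was used. The members, gene lists and motifs were chosen with earlier results of these data known. Of 885 listed genes, 864 were matched by symbol. Genes named are those at the 20 strongest, 5 farthest and 6 edge peaks, in runs of 4 or more, nearest to 4 or more peaks, beside noncoding starts with the 5 highest signals, and in the lists. The DRE summits, the summits that were printed and the GC comparison between replicates were chosen after their values were seen.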

Additional observations from a re-analysis of the deposited data

How the results depend on the processing

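With promoter distances of 250 and 1000 bp in place of 500, the members were 9.59% and 5.42% of the list, 39.9% and 70.5% lay over 2000 bp from a start, 76.6% and 61.4% upstream and 16.8% and 28.3% in convergent gaps. The X held 10.2 and 3.78 peaks per Mb, and the large autosome arms 15.99 and 10.3, so that X stayed the lower. In the stronger 50% of the list there were 202 members with a median signal of 312, of which 40.1% were in divergent gaps and 68 had another within 5 kb, with 2.99 per Mb on X and 5.88 on the large autosome arms. Members were 6.001% of the list when noncoding starts counted as promoters, and 6.1% when no base of the peak could lie in a gene. Both replicates had an overlapping leading peak at 48.8% with 50% of both peaks shared, at 56.5% with summits within 100 bp, and an overlapping peak at 98.6% with whole lists. Chosen after seeing the data were runs counted once, with a median signal of 232, 47.3% over 2000 bp away and 8.49 per Mb on the large autosome arms, and eligible sequence without transposable elements, with 13.9 per Mb there.

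From the leading peaks of 1 replicate at a time, GC content at summits ranged from 39.5% to 44.5%, and the number of motifs past the threshold from 0 to 1. The 1 was the CA repeat (CACACACA), higher at the summits of replicate 1, and the cause was not tested. The number of members and their distance, side and gap shares moved by less than their intervals. Overlapping members merged, also chosen later, gave 396 regions. Other window and flank settings gave 0 motifs. By either bounding gene in place of the nearest start, 7 of the 12 gene list counts moved by over 1.5 times. No paired analysis was possible because there is 1 group. Peak lists without counts set no depth, so a peak that is missing may lie below the detection limit of these libraries.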
